A study of Mus musculus with 5 samples.

Results

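Described here are 9 genes known as targets of PPAR-alpha, of 31053 genes in the count tables, in hepatocytes of 5 mouse liver libraries. The 9 genes are Abcd2, Abcd3, Ehhadh, Cyp4a10, Cyp4a14, Vnn1, Plin2, Pdk4 and Fgf21. They were matched by gene symbol, and all 9 were listed in every library. They were chosen because of levels already seen in these libraries, Abcd2 at 96 h among them, so their levels and ratios are given as a description and no test was made. Hepatocytes were barcodes with at least 5000 unique molecular identifiers (UMIs, each standing for 1 captured RNA molecule), 10% to 30% mitochondrial UMIs and at least 1% of UMIs from Alb, Apoa1 and Ttr. The rule found 2106 hepatocytes in P14, 925 in the control and 1170, 719 and 771 at 24, 48 and 96 h.

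The libraries came from C57BL/6J mice, 1 library per group, made with a droplet-based single-cell kit from liver cells freed by perfusion and passed over a dead-cell removal kit. P14 is unoperated, at postnatal day 14. The other groups are adults: a control, and animals sampled 24, 48 or 96 h from a partial hepatectomy (PHx), an operation that takes away most liver lobes, done at 8 weeks of age. The treatment text counts the adult control among the operated animals, whereas its title and source call it a control, and it is treated as one here. Numbers of animals and their sex are not labelled. With 1 library per group there is no replicate error: each interval below is a 95% interval for counting error only, and no p-value is given.

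PPAR-alpha is a nuclear receptor that binds fatty acids and, as a partner of the retinoid X receptor, activates genes for burning fat in liver, in peroxisomes, mitochondria and the endoplasmic reticulum. Fasting and the high-fat milk diet of suckling pups are classical settings of its activity. Among the 9 genes, Abcd2 and Abcd3 encode peroxisomal membrane transporters for acyl-CoA, and Ehhadh encodes the bifunctional enzyme of peroxisomal beta-oxidation. Cyp4a10 and Cyp4a14 encode omega-hydroxylases of fatty acids, Vnn1 a pantetheinase, Plin2 a coat protein of lipid droplets, Pdk4 a kinase that shuts pyruvate dehydrogenase, and Fgf21 a fasting hormone.

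In the mm10 build that the submitters' processing notes name, the GENCODE M21 annotation places Abcd2 at chr15:91145871-91191799, Abcd3 at chr3:121758774-121815302, Ehhadh at chr16:21761287-21787807 and Vnn1 at chr10:23894688-23905343. Plin2 lies at chr4:86648386-86670060, Pdk4 at chr6:5483351-5496309 and Fgf21 at chr7:45613886-45615490. The spans of Cyp4a14 (chr4:115486200-115496142), Cyp4a10 (chr4:115518264-115533649) and Cyp4a31 (chr4:115563649-115579015) follow one another in 1 cluster. Counts are per gene and do not resolve exons. The last 400 transcript bases of Cyp4a10 were 92.5% identical to those of Cyp4a31, so reads near the 3′ end could be split or lost between them and the Cyp4a10 level is uncertain to that extent. The same stretch of Cyp4a10 was 53.5% identical to that of Cyp4a14.

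PPAR-alpha with its partner binds a direct repeat of AGGTCA spaced by 1 base of any kind, AGGTCANAGGTCA. RefSeq promoters (GRCm38.p6) were at hand for 5 of the 9 genes, Abcd3, Ehhadh, Plin2, Pdk4 and Fgf21, and the 250 bases before each start were searched on both strands for the window closest to this 13-base motif. The lines below show the best window of 4 genes on the gene's own strand, with the 13 bases in capitals, to set the closest of them beside weaker ones.

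Plin2 (chr4:86670258-86670298, minus strand): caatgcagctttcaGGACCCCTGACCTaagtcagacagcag

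Pdk4 (chr6:5496408-5496448, minus strand): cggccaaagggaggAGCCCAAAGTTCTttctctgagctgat

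Fgf21 (chr7:45615547-45615587, minus strand): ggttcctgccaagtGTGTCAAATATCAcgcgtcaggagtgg

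Ehhadh (chr16:21787881-21787921, minus strand): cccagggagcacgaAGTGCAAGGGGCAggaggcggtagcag

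The Plin2 window matched on the opposite strand with 2 mismatches among the 12 fixed letters, and it holds 1 intact AGGTCA. Of all 32851 promoters searched, 3.24% had a window with at most 2 mismatches and 14.0% held AGGTCA. The windows of Pdk4, Fgf21 and Ehhadh had 4 mismatches, which 74.5% of all promoters reached or bettered, and those of Abcd3 had 5. A match is only a likeness in letters and says nothing of binding here.

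Across whole libraries, total UMIs ranged from 80927744 at 48 h to 136110607 in P14, and median UMIs per hepatocyte from 18527 in the adult control to 38922.5 in P14. Alb, Apoa1 and Ttr made up a median of 11.2% of UMIs in P14, 5.77% at 96 h and 2.10% to 2.86% in the others, and all 6 hepatocyte markers were detected in each library. Empty droplets, read as free RNA, held 466 UMIs each in P14, 1328 in the control and 670, 290 and 795 at 24, 48 and 96 h. Of all hepatocyte barcodes, 3 were shared between libraries. No doublet caller was run. Barcodes with 3 or more markers of another class numbered 191 in P14, 713 in the control and 738, 675 and 286 at 24, 48 and 96 h. With erythroid markers not counted, the barcodes free of such mixing numbered 2051, 900, 1077, 442 and 757, so at 48 h many were mixed by markers of other classes too. P14 hepatocytes had 840 CPM of Xist (UMIs summed over cells and scaled to 1000000 UMIs per library, mitochondrial genes left out) and 0 UMIs of the Y-linked Ddx3y, the reverse of the other 4 libraries, so P14 and the adult control differed in sex as well as age and the 2 cannot be told apart. The adult control also carries another final code in its sample description than the other 4 libraries.

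**Figure D1:**
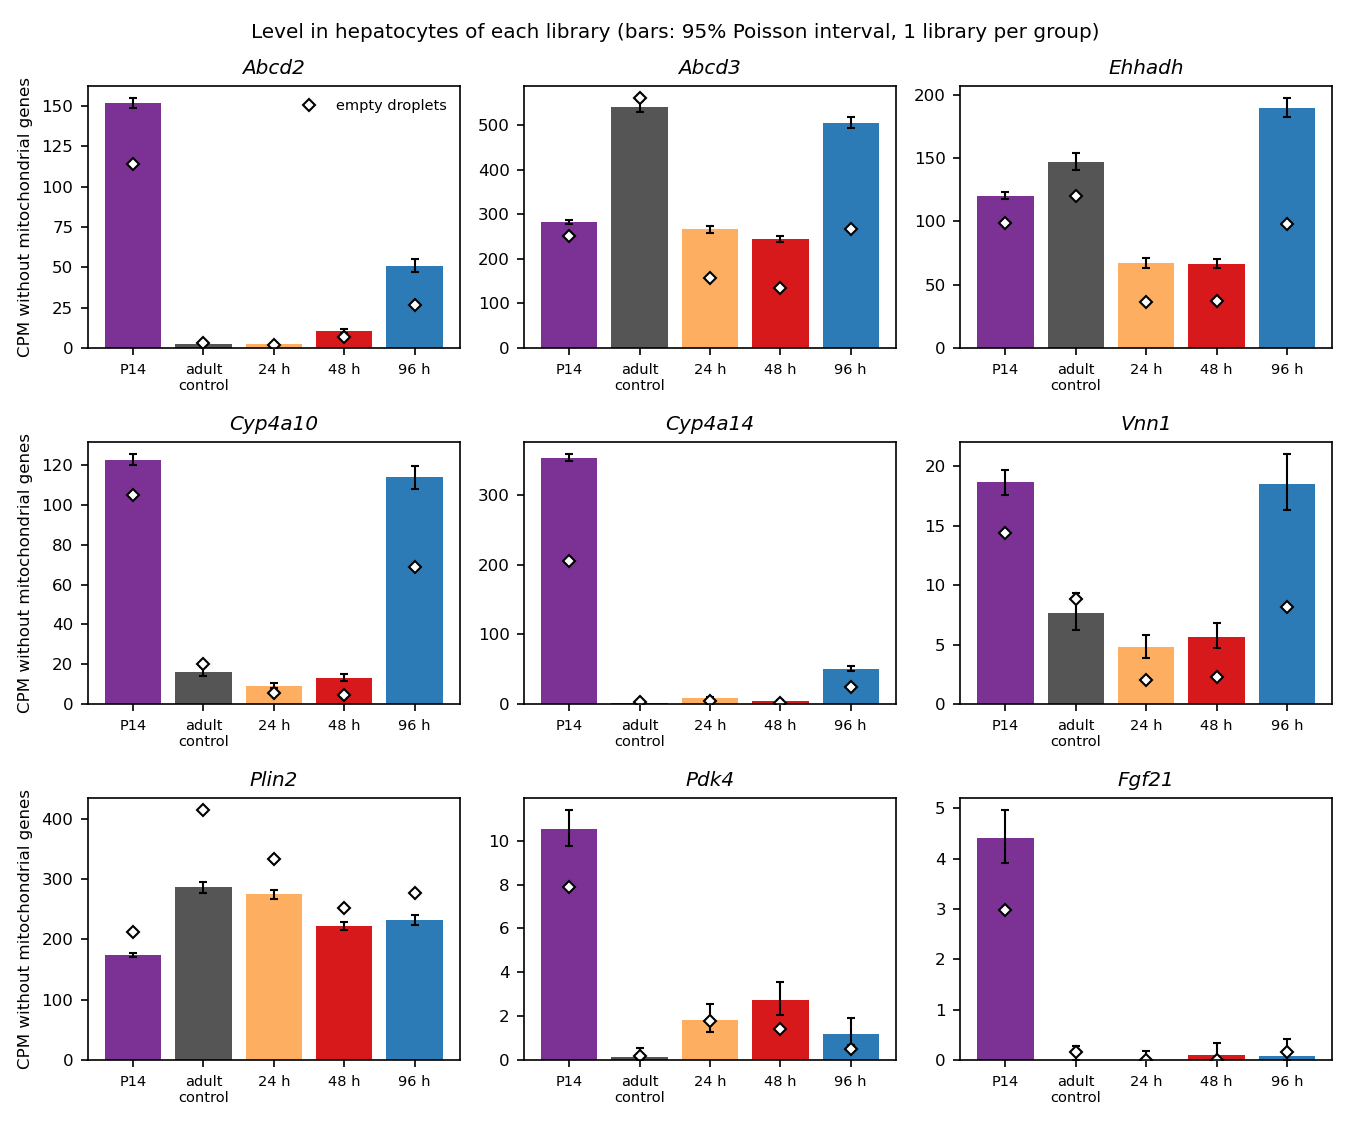
Level of each gene (CPM without mitochondrial genes, linear axes from 0) in the hepatocytes of the 5 libraries, with 95% Poisson intervals for counting error as bars. Open diamonds give the level in empty droplets. Abcd2, Cyp4a10, Cyp4a14 and Vnn1 were higher in P14 and at 96 h than in the adult control, and Fgf21 and Pdk4 were highest in P14.

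Abcd2, the transporter of very long-chain acyl-CoA, was at 152 CPM in P14, 2.40 in the control and 2.51, 10.6 and 51.1 at 24, 48 and 96 h. The adult control and 24 h did not differ beyond counting error, and each later library was higher than the one before. At 96 h the level was 21.3-fold that of the control (14.9 to 31.4, from 687 and 32 UMIs), and at 48 h it was 4.39-fold (3.02 to 6.58). Between the operated libraries, which share a description code, it was 4.84-fold higher at 96 h than at 48 h (4.15 to 5.66). In cells of 10% to 20% mitochondrial UMIs, 87 in the control and 53 at 96 h, the log2 ratio to the control (of CPM + 1) was larger. It was 4.93 in place of 3.94 at 96 h, 2.59 in place of 1.76 at 48 h and 6.39 in place of 5.49 in P14. These ratios all share the 87 control cells, so they are not read as a stronger result. Over all alternatives the lowest log2 ratio of Abcd2 to the control was 2.30 at 96 h, 0.73 at 48 h and 3.70 in P14.

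The Abcd2 signal was spread over many cells. Each hepatocyte was thinned to 5000 UMIs so that shares could be compared at equal depth. Abcd2 then had a UMI in 44.7% of cells in P14, 0.757% in the control and 0.769%, 4.87% and 18.5% at 24, 48 and 96 h. In unthinned cells they were 96.6%, 3.24%, 3.85%, 24.2% and 51.5%. The cell with the most Abcd2 UMIs had 9 at 96 h, and the 10% of cells richest in Abcd2 there held 40.2% of its UMIs.

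Free RNA carried Abcd2 too. Empty droplets had 114 CPM of Abcd2 in P14, 2.84 in the control and 2.00, 7.07 and 26.5 at 24, 48 and 96 h. They were below the hepatocytes in P14 and the libraries of 48 and 96 h, and level with them in the control. At 1000 UMIs per barcode, none of 71 T or NK-like barcodes in P14 and none of 187 at 96 h had an Abcd2 UMI, which allows shares of up to 5.06% and 1.95%, against 10.6% and 3.89% of hepatocytes. Median depth was 7893 UMIs in those T or NK-like barcodes of P14 and 6296 at 96 h.

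Abcd3, the more general peroxisomal acyl-CoA transporter, was at 283 CPM in P14, 542 in the control and 266, 244 and 506 at 24, 48 and 96 h. Its pattern was unlike that of Abcd2: P14, 24 h and 48 h were low, and the adult control and 96 h were high. Against the control it was 2.03-fold lower at 24 h (1.96 to 2.11) and 2.22-fold lower at 48 h (2.14 to 2.30), and 1.07-fold lower at 96 h (1.04 to 1.11). The value at 24 h sits at the 2-fold line. Its log2 ratio was −0.96 with trimmed-mean (TMM) scaling and ranged from −1.15 to −0.93 over the alternatives.

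Ehhadh was at 120 CPM in P14, 147 in the control and 67.0, 66.6 and 190 at 24, 48 and 96 h. Like Abcd3 it was lowest at 24 h and 48 h, 2.20-fold (2.05 to 2.36) and 2.21-fold (2.06 to 2.37) below the control. The log2 ratio at 24 h was −0.96 without mixed barcodes and −0.99 with the mean of per-cell CPM, and at 48 h it was −0.95 in cells of 10% to 20% mitochondrial UMIs, each just short of 2-fold. At 96 h it was 1.29-fold above the control (1.21 to 1.37) and 2.85-fold above 48 h (2.67 to 3.04). The share of cells with an Ehhadh UMI at 5000 UMIs was 42.8% in the control, 25.04% and 22.5% at 24 h and 48 h, and 49.0% at 96 h. At 1000 UMIs it was 11.7% of hepatocytes and 3.46% of T or NK-like barcodes in the control, and 13.2% and 1.07% at 96 h.

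Cyp4a10 was at 123 CPM in P14, 16.2 in the control and 9.22, 13.2 and 114 at 24, 48 and 96 h. P14 and 96 h were close, with a ratio of 1.08 (1.02 to 1.139), and both stood well above the other 3 libraries. The level at 96 h was 7.01-fold that of the control (6.08 to 8.13) and 8.59-fold that of 48 h (7.55 to 9.80). With only cells of 10% to 20% mitochondrial UMIs, 87 in the control and 53 at 96 h, the log2 ratio of 96 h to the control (of CPM + 1) was 1.21 in place of 2.74, and that of P14 was 2.04 in place of 2.84. At 24 h it was 1.76-fold below the control (1.44 to 2.16), a log2 ratio of −0.75 that was −1.43 in cells of 10% to 20% mitochondrial UMIs, and at 48 h the ratio was −0.27 and −1.11.

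Cyp4a14 was at 353 CPM in P14, 1.80 in the control and 8.30, 4.70 and 50.5 at 24, 48 and 96 h. The order differs from that of Cyp4a10 in that the control was the lowest library and 24 h was above 48 h. It was 196-fold higher in P14 than in the control (132 to 306) and 28.0-fold higher at 96 h (18.7 to 44.1). In cells of 10% to 20% mitochondrial UMIs the log2 ratio was 5.79 in place of 6.98 in P14 and 2.77 in place of 4.20 at 96 h. The ratio at 24 h was 4.61 (2.99 to 7.40), where 1 cell held 26 of the 162 UMIs. Its log2 ratio fell as low as 0.63 over the alternatives, and was short of 2-fold with a pseudocount of 10 CPM.

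The UMIs of the Cyp4a genes at 96 h lay more in a minority of rich cells than those of Abcd2. Which of Cyp4a10 and Abcd2 was detected in more cells depended on depth. In unthinned hepatocytes at 96 h the shares were 47.7% for Cyp4a10 and 51.5% for Abcd2. At 5000 UMIs, Cyp4a10 was found in 22.7% of hepatocytes at 96 h, Abcd2 in 18.5% and Cyp4a14 in 9.99%, and the Cyp4a genes were found in 5.62% and 0.541% of control cells. The richest 10% of cells held 59.9% of the Cyp4a10 UMIs and 75.3% of the Cyp4a14 UMIs at 96 h, against 40.2% for Abcd2. In P14, 31.1% of cells had a Cyp4a10 UMI and 68.9% a Cyp4a14 UMI.

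Free RNA carried the Cyp4a genes too. Empty droplets had 69.0 CPM of Cyp4a10 and 23.9 of Cyp4a14 at 96 h, and 105 and 205 in P14, below the hepatocytes. In the control they had 20.3 and 2.36 CPM, against 16.2 and 1.80 in hepatocytes. For Cyp4a14 this lay within the counting error of the hepatocytes (1.15 to 2.68). Empty droplets of the control held 7.17% of the median UMIs per hepatocyte. How much of the control shares came from free RNA was not tested. At 1000 UMIs per barcode, 0.535% of the T or NK-like barcodes at 96 h had a Cyp4a10 UMI and none a Cyp4a14 UMI, which allows up to 1.95%, against 7.13% and 2.72% of hepatocytes. In P14 the T or NK-like shares were 2.82% and 4.23%, against 9.54% and 23.6% of hepatocytes.

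Vnn1 was at 18.6 CPM in P14, 7.66 in the control and 4.77, 5.66 and 18.5 at 24, 48 and 96 h. P14 and 96 h did not differ beyond counting error (ratio 1.01, 0.876 to 1.16). At 96 h the level was 2.42-fold that of the control (1.91 to 3.08) and 3.27-fold that of 48 h (2.62 to 4.11). Its log2 ratio to the control at 96 h, 1.17, fell short of 2-fold at 0.69 with 0% to 30% mitochondrial UMIs, 0.89 without mixed barcodes, 0.69 with a pseudocount of 10 CPM and 0.93 without cells with a mitosis gene. In P14 it was 1.18, and 0.89 without mixed barcodes and 0.70 with that pseudocount.

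Plin2 varied least. It was at 174 CPM in P14, 286 in the control and 275, 222 and 231 at 24, 48 and 96 h, within 2-fold throughout. Empty droplets exceeded hepatocytes in each library, from 213 CPM in P14 to 414 in the adult control. With the free RNA of empty droplets subtracted, the log2 ratio of Plin2 to the control was −0.65 in P14 (−0.71 without that step) and −0.25 at 96 h (−0.30).

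Pdk4 was at 10.6 CPM in P14, 0.150 in the control and 1.84, 2.74 and 1.19 at 24, 48 and 96 h. Only P14 stood clear of a few CPM. The control value rests on 2 UMIs, and the ratio of P14 to it was 70.3 (19.4 to 582). Empty droplets had 1.77 CPM at 24 h, close to the hepatocytes.

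Fgf21 was at 4.41 CPM in P14 from 285 UMIs, with 0 UMIs in the adult control and at 24 h, 2 at 48 h and 1 at 96 h. Against a floor of 3 UMIs per library, the level in P14 was at least 19.6-fold higher than in the control. In P14 it was found in 10.1% of hepatocytes, with up to 9 UMIs in a cell, and at 5000 UMIs in 1.76%. No cell of the other 4 libraries had a UMI at that depth, which for the 925 control cells allows a share of up to 0.398%. Empty droplets had 2.98 CPM in P14.

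Ratios to the control were taken as log2((CPM + 1)/(CPM + 1)) for genes with at least 5 CPM in either library, and a gene was counted when past 2-fold. At 96 h, 7 members met the level filter, and 4 were past 2-fold higher (Abcd2 3.94, Cyp4a14 4.20, Cyp4a10 2.74, Vnn1 1.17) and none lower, where 4.07% of 8890 genes were higher and 1.88% lower. At 24 h, 1 of 6 was higher (Cyp4a14 1.73) and 2 lower (Abcd3 −1.02, Ehhadh −1.12), with 8.51% of 9028 genes higher and 7.13% lower. At 48 h, 1 of 6 was higher (Abcd2 1.76) and 2 lower (Abcd3 −1.15, Ehhadh −1.13), with 8.3% of 9035 genes higher and 7.63% lower. These values chose the members, so nothing is read from the counts, and all these ratios share the 1 control library.

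In P14, 5 of the 8 members that met the filter were past 2-fold higher and none lower, with 7.89% of 9011 genes higher and 13.8% lower. TMM scaling turned that split to 12.8% higher and 7.64% lower, and moved the median of all genes from −0.26 to 0.08. With the all-gene median before TMM scaling, −0.26, subtracted, the log2 ratios of P14 to the control were 7.24 for Cyp4a14 and 5.75 for Abcd2. They were 3.59 for Pdk4, 3.11 for Cyp4a10 and 1.44 for Vnn1. On that scale Abcd3 was at −0.67, Plin2 at −0.45 and Ehhadh at −0.03. The unadjusted Ehhadh ratio was −0.29 and changed sign to 0.05 with TMM scaling. Abcd2 (2.40 CPM in the control), Cyp4a14 (1.80) and Pdk4 (0.150) met the filter only through P14, so they could not have been counted as lower. The members were chosen with these levels known, and nothing is read from the count in P14.

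Among the operated libraries, 6 of 7 members were past 2-fold higher at 96 h than at 48 h and none lower, where 4.38% of 8966 genes were higher and 4.24% lower. The 6 were Cyp4a14, Cyp4a10, Abcd2, Vnn1, Ehhadh and Abcd3, and Plin2 was the other member above the filter, with a ratio of 1.04 (0.997 to 1.09). Between 24 h and 48 h, 1 of 7 was past 2-fold, Abcd2, which was 4.21-fold higher at 48 h (3.07 to 5.86), where 1.78% of 8817 genes were higher and 1.76% lower. Cyp4a14, at 4.70 CPM at 48 h, and Abcd2, at 2.51 CPM at 24 h, met the filter only through the later library. The members were chosen with these levels known, so nothing is read from these counts either.

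**Figure D2:**
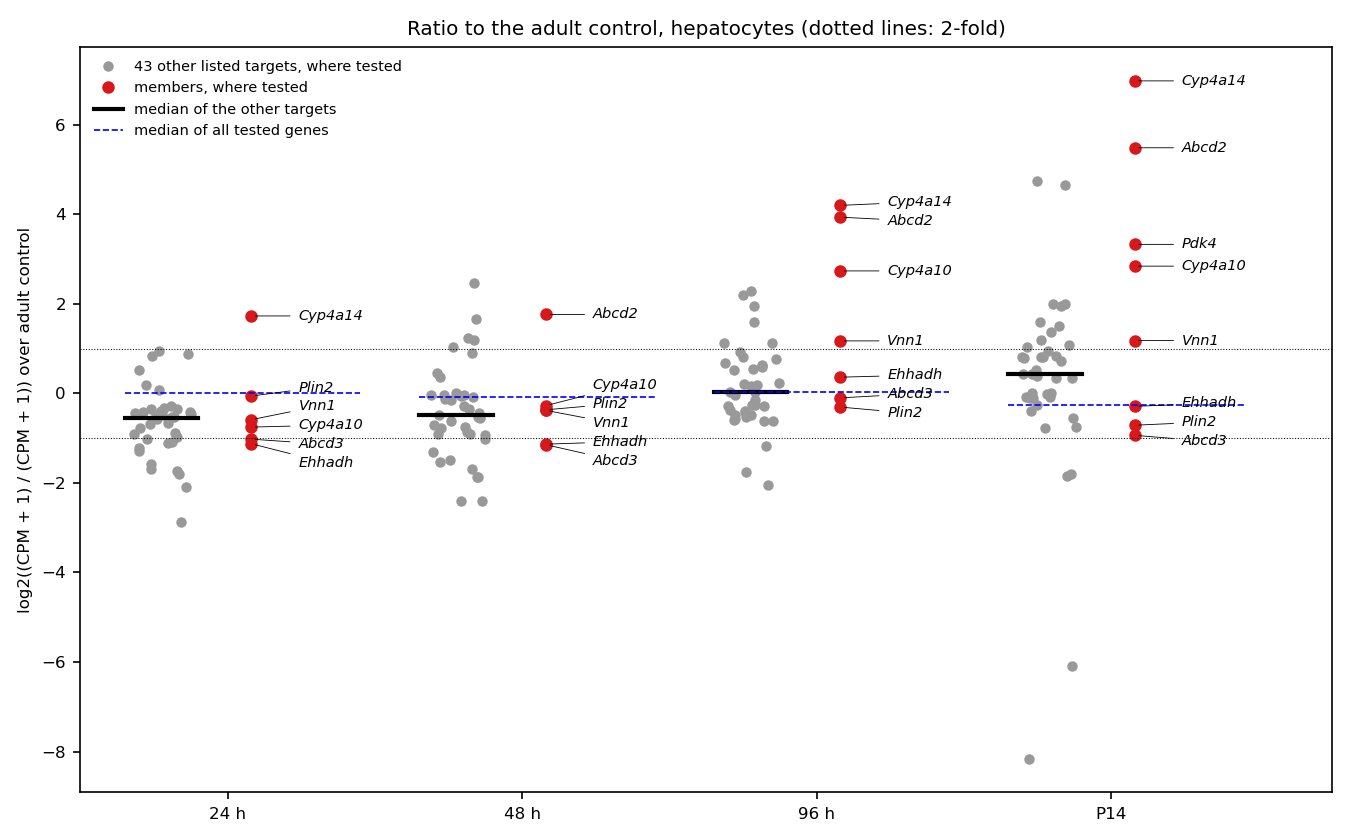
Log2 ratio to the adult control, of (CPM + 1), for the members (red, named) and for 43 other listed PPAR-alpha targets (grey), where a gene had at least 5 CPM in either library. Solid lines are medians of the other targets and dashed lines medians of all genes tested. The other targets lay mostly below the control at 24 h and around it at 96 h, while Cyp4a14, Abcd2 and Cyp4a10 stood above all of them at 96 h.

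The other targets were mixed at 96 h. Of 43 listed, 40 met the filter there, with 6 past 2-fold higher, where 4.07% of all genes were, and 3 lower, where 1.88% were. Their median log2 ratio was 0.04, as was that of all genes. At 24 h none of 38 was past 2-fold higher (8.51% of all genes) and 11 were lower (7.13%), with a median of −0.55 against −0.00 for all genes. At 48 h, 5 of 39 were higher (8.3%) and 9 lower (7.63%), with a median of −0.49 against −0.08. In P14, 11 of 40 were higher (7.89%) and 4 lower (13.8%), with a median of 0.43 against −0.26.

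Cyp4a31, the neighbour of Cyp4a10, was at 107 CPM in P14, 3.00 in the control and 6.10, 6.43 and 14.5 at 24, 48 and 96 h, in the order of Cyp4a14 but for the near tie of 24 h and 48 h. The omega-hydroxylases Cyp4a12a and Cyp4a12b, known as male-biased in mouse liver, went the other way. Cyp4a12a was at 0 UMIs in P14, 284 CPM in the control and 65.5, 53.2 and 68.5 at 24, 48 and 96 h, and Cyp4a12b, whose last 400 bases were 96.8% identical, was likewise at 0 UMIs in P14 and at 66.7 CPM in the control. At 96 h, when Cyp4a10 and Cyp4a14 were above the control, Cyp4a12a was 4.15-fold below it (log2 ratio −2.04). P14, with 0 UMIs of Ddx3y, differs from the control in sex and in age, which cannot be told apart for any of these genes.

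The acyl-CoA thioesterases, which release free fatty acids, were mixed. Acot1 was at 0.867 CPM in P14, 5.71 in the control and 1.74, 14.8 and 11.7 at 24, 48 and 96 h. Acot4 was at 49.96 CPM in P14, 11.7 in the control and 23.6 to 26.7 after PHx, and Acot8 ranged from 6.25 to 12.0 CPM. Acot3 was at 24.3 CPM in P14 with 0 UMIs in the control, at least 108-fold higher, and at 2.30 CPM or less elsewhere. Acot2 was at 8.69 CPM in P14, 1.50 in the control and 1.95, 6.91 and 11.3 at 24, 48 and 96 h. Ucp2, a mitochondrial carrier, was at 5.48 CPM in the control and at 34.6 and 28.9 at 48 h and 96 h.

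Acaa1b, the peroxisomal thiolase that acts after Ehhadh, was at 717 CPM in P14, 435 in the control and 58.2, 118 and 282 at 24, 48 and 96 h. It was 7.47-fold below the control at 24 h and 1.54-fold below it at 96 h.

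The receptor itself, Ppara, was at 151 CPM in P14, 96.3 in the control and 41.2, 35.9 and 63.5 at 24, 48 and 96 h. It was 2.34-fold below the control at 24 h, 2.68-fold at 48 h and 1.51-fold at 96 h, so at 96 h, when 4 members were past 2-fold above the control, Ppara was below it. Its partner Rxra ranged from 140 CPM in P14 to 232 in the control. Ppard was at 1.84 to 4.18 CPM, Pparg at 1.13 CPM in the control and 9.29 in P14, Rxrb at 10.6 to 21.7 and Rxrg at 1.73 to 6.18. The coactivator Ppargc1b was at 16.7 CPM in P14, 27.8 in the control and 2.87, 3.07 and 12.1 at 24, 48 and 96 h. Over the list of 12 receptors and cofactors, 2 of 9 that met the filter were past 2-fold lower at 24 h (7.13% of all genes), 3 of 9 at 48 h (7.63%) and 1 of 10 at 96 h (1.88%), where 1 was higher (4.07%). In P14, 2 of 10 were higher (7.89%) and none lower (13.8%). Of 10 listed clock output genes, 5 were past 2-fold lower at 24 h (7.13% of all genes) and 7 at 48 h (7.63%). At each time 1 was higher (8.51% and 8.3%). At 96 h none of 9 that met the filter was past 2-fold higher (4.07%) or lower (1.88%). In P14, 5 of 10 were lower (13.8%) and 2 higher (7.89%). The part of clock output in the levels of Ppara and the members was not tested.

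Paralogs of the members went separate ways. Vnn3, another pantetheinase gene, was at 141 CPM in P14, 10.7 in the control and 12.2, 16.2 and 23.2 at 24, 48 and 96 h. Pdk2 was at 27.2 CPM in P14, 68.8 in the control and 16.8, 15.9 and 38.7 at 24, 48 and 96 h, and Pdk1 was low at 24 h (14.8 CPM) and 48 h (15.5) too, against 38.4 in the control. Abcd4 stayed at 6.41 to 8.79 CPM, Plin3 at 22.6 to 40.4 and Plin5 at 24.7 to 38.8, while Plin4 and Pdk3 were at 1.69 CPM or less and Plin1 had 0 UMIs in all 5 libraries.

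The FGF21 co-receptor Klb was at 18.1 CPM in P14 and 9.99 in the control. Of the receptors, Fgfr1 was at 0.929 CPM in P14 and 11.6 in the control, Fgfr2 at 6.91 and 26.4, Fgfr3 at 3.61 and 19.1, and Fgfr4 at 11.2 and 13.6. In P14, the library with Fgf21, 3 of the 5 genes were past 2-fold lower (13.8% of all genes) and none higher (7.89%). Of 15 peroxisome biogenesis genes, 14 met the filter, and none was past 2-fold higher in any library. Of the 14, 2 were past 2-fold lower in P14 (13.8% of all genes), none at 24 h (7.13%), 1 at 48 h (7.63%) and none at 96 h (1.88%).

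Cells were ordered within each library by a score of 8 pericentral minus 8 periportal genes, none of them a member, and split into tertiles. Blood runs through the lobule from the portal to the central vein, and many liver genes are graded along it. The score holds Cyp2e1, so its central excess follows from the ordering and only describes the span: it was 62.4-fold higher in the central than in the portal tertile at 96 h and 4.53-fold in P14. A tertile is a range of a score and not a cell type, and 42 of the 771 cells at 96 h lay within 0.05 of a boundary.

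At 96 h the Cyp4a genes were highest in the central tertile. Cyp4a14 was at 5.40 CPM in the portal, 25.2 in the middle and 108 in the central tertile, a ratio of 20.03 (12.97 to 32.6) from end to end. Cyp4a10 was at 22.4, 59.3 and 233 CPM, a ratio of 10.4 (8.39 to 13.1). In the portal tertile the Cyp4a10 level of 22.4 CPM (17.9 to 27.6) was above that of the same tertile of the control (9.82 to 16.9, from 56 UMIs). Median depth was 18901 UMIs in the portal and 26247 in the central tertile.

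The central excess was smaller in the other libraries where it could be placed. The span of the tertiles differed too. The ratio of Cyp2e1 was 13.5 in the control, 13.2 at 24 h and 12.7 at 48 h, against 62.4 at 96 h. That of Cyp1a2 was 13.9 in the control and 11.5 at 96 h. The part of this span in the Cyp4a ratios was not tested. At 48 h the central-to-portal ratio was 5.31 for Cyp4a10 (3.72 to 7.76) and 4.43 for Cyp4a14 (2.55 to 8.16), and at 24 h it was 2.68 (1.78 to 4.11) and 2.18 (1.46 to 3.29). For Cyp4a14 at 24 h, 1 cell held 26 of the 162 UMIs. The share of cells with a Cyp4a14 UMI at 5000 UMIs was 4.62% (2.76% to 7.20%) in the central tertile there. In the portal tertile it was 1.54% (0.567% to 3.32%), and these intervals overlap. In the adult control the central-to-portal ratio was 1.58 for Cyp4a10 (1.13 to 2.24), while 24 Cyp4a14 UMIs in all were too few to place. In P14 it was 1.20 for Cyp4a10 (1.138 to 1.26) and 1.55 for Cyp4a14 (1.502 to 1.60), where Cyp4a14 was at 278 CPM even in the portal tertile. Cyp4a10 in P14 was not graded from end to end, as the middle tertile was the lowest at 100.4 CPM (96.2 to 104.8), below the portal one (117 to 126).

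Over all hepatocytes, Abcd2 did not climb toward the central tertile at 96 h. It was at 43.4 CPM (37.1 to 50.5) in the portal, 63.5 (56.4 to 71.3) in the middle and 45.9 (40.2 to 52.2) in the central tertile, highest in the middle, with a central-to-portal ratio of 1.06 (0.863 to 1.30). At 48 h the ratio was 0.968 (0.677 to 1.38), in the control 1.03 (0.375 to 2.86) and in P14 1.32 (1.26 to 1.39). At 24 h Abcd2 was 5.01-fold higher in the portal than in the central tertile (1.69 to 20.1), from 21 and 4 UMIs. In non-cycling cells alone, ordered anew, the ratio at 96 h was 1.51. The peroxisomal genes lay between, with a ratio at 96 h of 1.62 for Ehhadh (1.46 to 1.79) and 1.47 for Abcd3 (1.38 to 1.56), and Vnn1 had 1.93 (1.38 to 2.74). Plin2 leaned the other way at 48 h, from 281 CPM in the portal to 169 in the central tertile, 1.66-fold (1.54 to 1.78), and in the control, 1.39-fold (1.28 to 1.501). Fgf21 in P14 was 1.57-fold higher in the portal tertile (1.18 to 2.09).

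**Figure D3:**
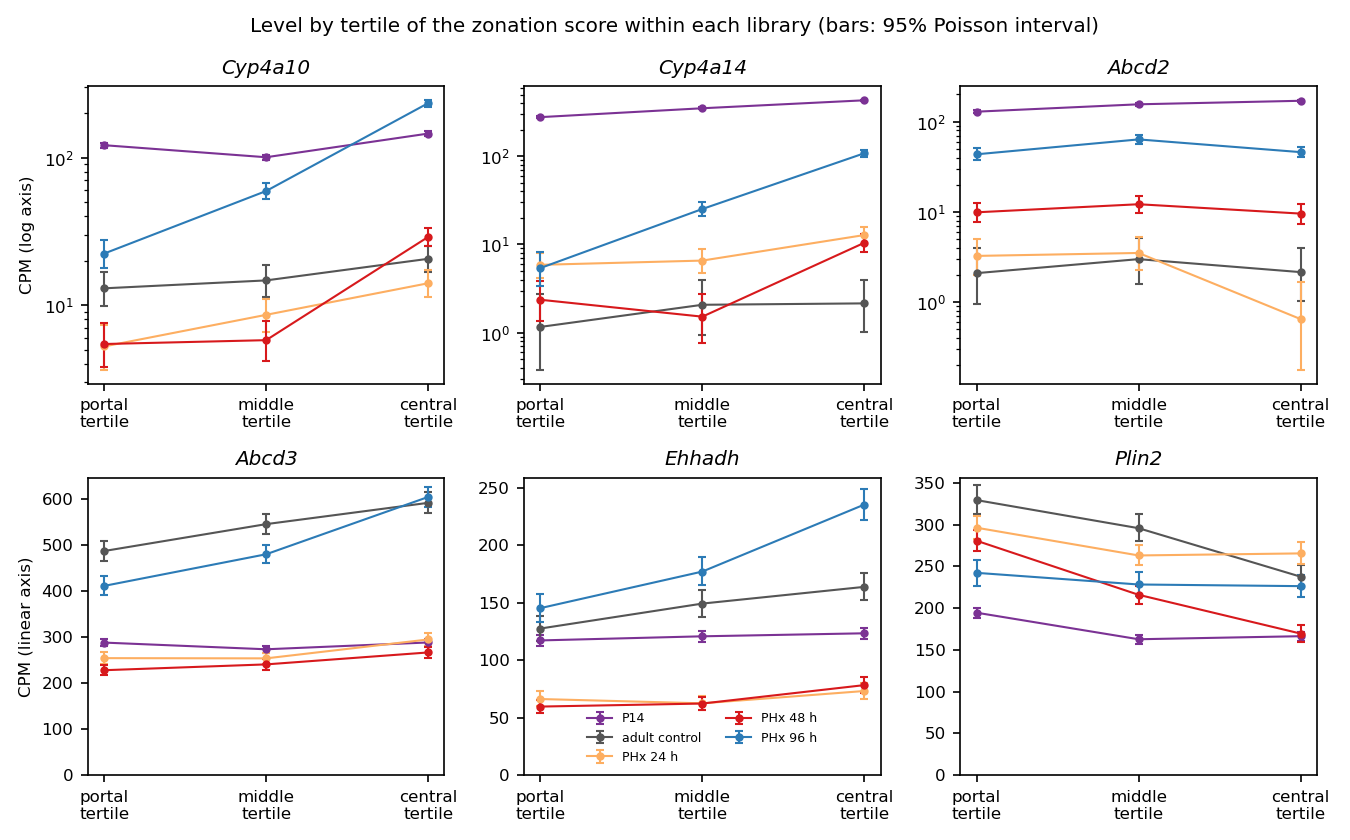
Level of 6 members (CPM; log axes in the upper row, linear axes from 0 in the lower row) in the portal, middle and central tertiles of each library, with 95% Poisson intervals for counting error. The lines of Cyp4a10 and Cyp4a14 at 96 h climb from 22.4 to 233 and from 5.40 to 108 CPM, while that of Abcd2 is highest in the middle tertile, at 63.5 CPM, and nearly equal at its ends.

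Cycling hepatocytes had UMIs of at least 3 mitosis genes at 5000 UMIs, and non-cycling ones of none. Abcd2 was lower in cycling cells at 96 h, at 48 h and in P14. At 96 h it was at 25.6 CPM in 78 cycling and 57.0 in 565 non-cycling cells, 2.23-fold lower, with a ratio of 0.449 (0.321 to 0.613). At 48 h it was at 8.34 and 14.0 CPM, with a ratio of 0.598 (0.443 to 0.804), and in P14 124 and 155 CPM, with a ratio of 0.794 (0.742 to 0.850). At 24 h it was at 2.99 and 2.36 CPM, from 10 and 28 UMIs, with a ratio of 1.27 (0.548 to 2.68), and the control had 5 cycling cells.

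The Cyp4a genes showed no single direction. At 96 h Cyp4a10 was 1.62-fold higher in cycling cells (1.41 to 1.85) and Cyp4a14 1.83-fold higher (1.49 to 2.24), and 53 of the 78 cycling cells, 67.9%, lay in the central tertile. At 48 h Cyp4a14 had a ratio of 0.387 (0.240 to 0.611), and in P14 Cyp4a10 had 0.615 (0.566 to 0.668). Vnn1 was 1.90-fold higher in cycling cells at 48 h (1.19 to 3.11) and 1.95-fold at 96 h (1.38 to 2.70). Median depth was 28404 UMIs in cycling and 21052 in non-cycling cells at 96 h, and the part of depth and position in these ratios was not tested. Abcd3 differed little, with a ratio of 1.01 at 96 h (0.942 to 1.09).

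At 96 h the Cyp4a pair tended to occur in the same cells. At 5000 UMIs, Cyp4a14 had a UMI in 24.6% (18.4% to 31.6%) of 175 cells with a Cyp4a10 UMI and in 5.70% (3.98% to 7.88%) of 596 cells without one. Within the central tertile the shares were 31.4% of 118 cells and 12.9% of 139. Cyp4a14 was not found more often beside Abcd2: it had a UMI in 6.29% (2.92% to 11.6%) of 143 cells with an Abcd2 UMI and in 10.8% (8.51% to 13.5%) of 628 without. In P14, where most cells had Cyp4a14, its share was 72.1% of cells with and 67.5% of cells without Cyp4a10, and 69.0% with and 68.9% without Abcd2.

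Outside hepatocytes, Abcd2 was found in myeloid barcodes. These were picked by having at least 3 fixed markers of a class and more of it than of any other. Neutrophil-like barcodes (led by Retnlg, S100a9 and Ngp) had 49.4 CPM of Abcd2 in P14, 55.1 in the control and 29.4, 21.5 and 67.3 at 24, 48 and 96 h. Macrophage or monocyte-like barcodes had 54.6, 17.2, 24.0, 40.4 and 52.2 CPM, from 18 to 49 barcodes per library. Their control value rests on 3 UMIs (3.54 to 50.2). Abcd2 was thus above the hepatocyte level in neutrophil-like barcodes of the control (27.5 to 98.5), while T or NK-like barcodes were at 0 to 1.33 CPM in all 5 libraries.

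The 8 neutrophil markers summed to 28.1 CPM in P14 hepatocytes, 11.1 in the control and 103, 192 and 21.4 at 24, 48 and 96 h. Without the mixed barcodes, which left 44 cells at 48 h and 212 in the control, the log2 ratio of Abcd2 to the control was 1.81 at 48 h and 4.03 at 96 h, against 1.76 and 3.94. Those of macrophages summed to 4.69 CPM at 96 h, with 2 of 10 at 0 UMIs, and to 12.8 in the control. Cyp4a10 in neutrophil-like barcodes was at 20.2 CPM or less, and at 0 UMIs at 24 h and 48 h.

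Pdk4 was found in endothelial-like barcodes, at 15.9 CPM in P14, 14.8 in the control and 15.6, 29.5 and 9.43 at 24, 48 and 96 h. These exceeded the hepatocyte levels in the 4 adult libraries, from 3 to 11 UMIs each. Plin2 UMIs were counted in every class shown, but empty droplets were rich in Plin2, and presence in a class is not read from them. In the control, endothelial-like barcodes, with a median of 1749.5 UMIs, had 370 CPM, against 414 in empty droplets of 1328 UMIs.

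**Figure D4:**
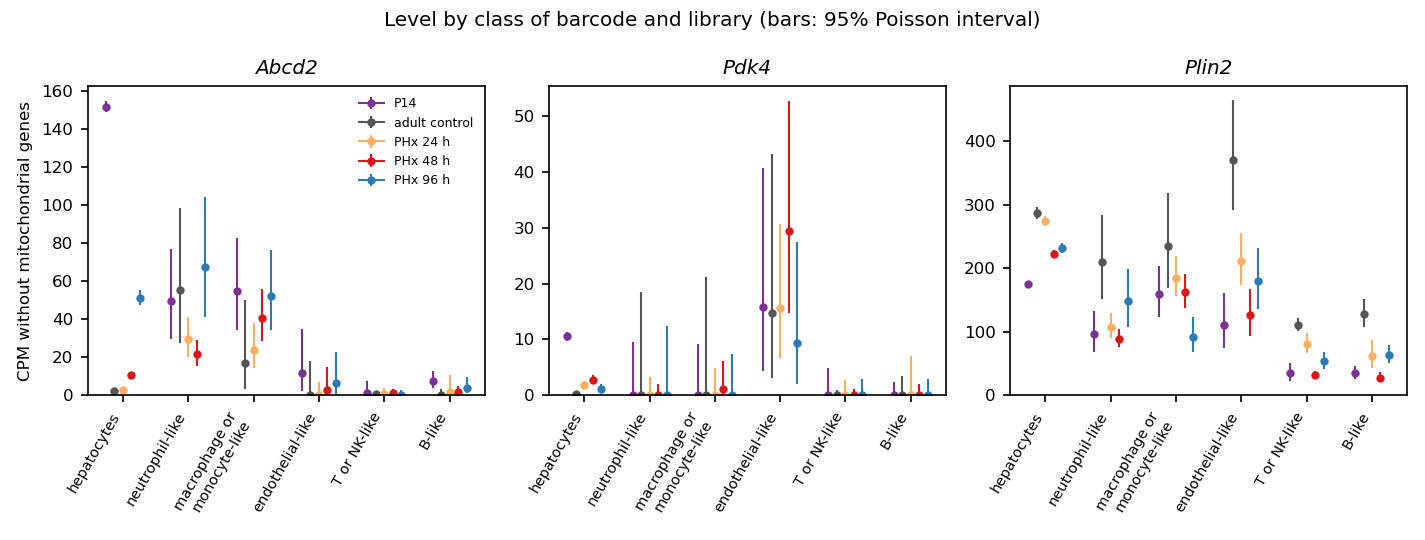
Level of Abcd2, Pdk4 and Plin2 (CPM, linear axes from 0) in hepatocytes and in 5 classes of barcodes picked by markers, by library, with 95% Poisson intervals for counting error. Abcd2 is above 20 CPM in neutrophil-like barcodes of every library, and hepatocytes exceed them only in P14.

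Genes with the pattern most like a member were sought by the largest difference, over the 5 libraries, between log2(CPM + 1) values centred on each gene's mean. For Abcd2, among 537 genes, the nearest were Akr1c18 (largest difference 1.03), Gstp3 (1.15), Lpl (1.19), Spink1 (1.25) and Cyp4a14 (1.28). Lpl, the lipase that clears circulating triglyceride, was at 1046 CPM in P14, 14.4 in the control and 5.79, 25.6 and 92.5 at 24, 48 and 96 h. For Cyp4a14, among 334 genes, they were Akr1c18 (0.94), Cyp4a31 (1.144), Abcd2 (1.28), Calml4 (1.40) and Cavin2 (1.502).

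For Cyp4a10, among 1152 genes, the nearest were Aqp4 (0.95), 8430408G22Rik (0.97), Slc16a7 (1.06), Serpina6 (1.09) and Inhba (1.139). For Fgf21, among 2435 genes, they were C1qtnf4 (0.18), Taf7 (0.24), Tenm3 (0.25), Zfp791 (0.27) and G6pc (0.32), genes highest in P14 and otherwise even. Fgf21 had 0 to 2 UMIs in the adult libraries, so the added 1 CPM held its log2 ratio of P14 to the control at 2.44. Its small differences rest on that floor. Taf7, for one, was at 17.9 CPM in P14 and 3.83 in the control. With 5 libraries, many genes share such an order, and likeness is a description only.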

How the data were processed

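For each of 5 libraries the authors deposited a matrix of whole-number UMI counts per gene and barcode, unfiltered and not normalized, with 31053 genes and 6794880 barcodes. Per the submitters' processing notes, bcl2fastq 2.17.1.14, Cell Ranger and Seurat 3.1 were used with the mm10 build, and the file headers give software version 3.0.2. The members and gene lists were chosen with earlier results of these data known.

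Hepatocytes were selected as stated in the report, and their UMIs were added up within a library and scaled to CPM, leaving out 13 mitochondrial genes. Intervals are exact Poisson for levels, Clopper-Pearson for shares and conditional binomial for ratios, at 95%. Genes were counted past 2-fold at 5 CPM or more in either library with a pseudocount of 1. Empty droplets were barcode ranks 20001 to 60000. Thinning used 5000 UMIs for hepatocytes and 1000 for comparison with other classes, without barcodes shallower than that. Classes other than hepatocytes needed 1000 UMIs.

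All 9 members are named. The 5 nearest genes in pattern are named for 4 members, from genes with at least 10 CPM in a library and a wide enough range. Listed genes past 2-fold may be named, largest first and up to 8 per list, with paralogs and receptors given in full, except items not reported here. Alternative scalings came from edgeR 4.0.16 and DESeq2 1.42.0 (R 4.3.3), and other steps used Python 3.11.15. The ratio step was tested on simulated data. No model was fitted, as each group has 1 library.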

Additional observations from a re-analysis of the deposited data

How the results depend on the processing

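Each ratio of a member to the control was recomputed under 16 alternatives, 3 of which, like both alternatives to the tertiles, were chosen after seeing the data. Of the 576 values, 499 moved by less than counting error and 77 by more, and no ratio past 2-fold changed sign. The count of members past 2-fold at 24 h was 3 and became 1 with a pseudocount of 10 CPM and 1 with the mean of per-cell CPM, 2 with CPM of all UMIs, TMM or DESeq2 scaling, free RNA subtracted, without mixed barcodes or without the 5% deepest barcodes, and 4 without a level filter or with 10% to 20% mitochondrial UMIs. At 48 h it was 3 and became 5 without a level filter, 4 without cells with a mitosis gene and 2 with a pseudocount of 10 CPM, where Abcd2 had a log2 ratio of 0.73. At 96 h it was 4, and it was 3 with 0% to 30% mitochondrial UMIs, without mixed barcodes, with a pseudocount of 10 CPM and without cells with a mitosis gene, Vnn1 being the member lost. In P14 it ranged from 4 to 6. The 10% to 20% mitochondrial range, whose values stand beside the ratios of Abcd2, Cyp4a10, Cyp4a14 and Ehhadh, left 933 cells in P14, 87 in the control and 181, 116 and 53 at 24, 48 and 96 h. The central-to-portal ratio of Abcd2 at 96 h was 1.51 in non-cycling cells, against 1.06, and the cause was not tested. No paired analysis was possible because each group has 1 library. Depth limits Fgf21 and Pdk4 in the adult libraries, at 57 UMIs or fewer each.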
